A study of Mus musculus with 18 samples.

Results

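The expression of 10 genes of the BCL2 family is described here across macrophages given type 2 cytokines and TNFa: 6 survival genes (Bcl2, Bcl2l1, Mcl1, Bcl2a1a, Bcl2a1b and Bcl2a1d), the BH3-only genes Bcl2l11 and Bbc3, and the pore-forming genes Bax and Bak1. They were found by symbol, as the 10 rows of 48794 in the gene count table whose Ensembl mouse ID carries one of these symbols in the GENCODE annotation of GRCm38. All 10 passed the filter on low counts. Bcl2a1a had at most 3 counts in any Control library and at most 9 in any IL4_IL13 library, so it passed only through the third group and had to differ there.

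BCL2 family proteins set whether the mitochondrial outer membrane is breached during apoptosis. Bax and Bak1 form the pores that release cytochrome c, the survival proteins hold them in check, and BH3-only proteins such as Bim (Bcl2l11) and Puma (Bbc3) bind the survival proteins or activate Bax and Bak1. In macrophages and other myeloid cells Mcl1 and the A1 proteins of the Bcl2a1 genes are known survival factors, and the A1 genes are known targets of NF-kB, the transcription factor that TNFa activates. The proteins are regulated heavily after translation, which RNA counts do not show.

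RNA was sequenced from macrophages grown out of the marrow of male C57BL/6 mice. The cells were matured for 7 days in recombinant human M-CSF at 50 ng/ml and then held in M-CSF at 10 ng/ml for the last 24 h. Control libraries had M-CSF alone, IL4_IL13 libraries had mouse IL-4 and IL-13 beside it, and IL4_IL13_TNFa libraries had mouse IL-4, IL-13 and TNFa, each at 10 ng/ml, with 6 libraries in each group. No group had TNFa without IL-4 and IL-13, so the TNFa comparison holds only on top of these 2 cytokines.

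Total counts per library ran from 14793404 to 20056125. Nothing in the labels states that libraries of a group were separate animals or cultures, so the p-values speak for the spread among these libraries, which may be technical. All 7 macrophage markers (such as Csf1r and Adgre1) were measured, with a summed level of 13573 to 24309 CPM (counts scaled to library size) in Control, 7855 to 9571 in IL4_IL13 and 8159 to 8948 in IL4_IL13_TNFa. The largest part of the Control sum was Lyz2, with means of 12005, 2848 and 3190 CPM in the 3 groups. Cd68 alone had a higher mean in IL4_IL13 than in Control (1080 against 760 CPM). Stromal markers, such as collagen genes, summed to 19.0 to 611 CPM, 57.5 to 527 and 60.8 to 355 in the same order, with 7 of 9 past the filter, and their part in the results was not tested. Neutrophil, dendritic and eosinophil markers were highest in IL4_IL13_TNFa, at up to 18.02, 36.5 and 53.6 summed CPM, mostly from Cxcr2, Zbtb46 and Siglecf, but Ly6g and Epx, which define neutrophils and eosinophils, were at 0 in every library. B cell, T and NK cell and mast cell markers summed to at most 3.20 CPM in any library, and the erythroid markers were at 0. In bulk RNA a smaller share of some cell type and less RNA per cell cannot be told apart.

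Control replicate 1 stood apart. In it 1208 genes differed by over 2-fold from the other 5 controls, against at most 131 in any other library compared with its own group. It lay above the other controls in Bcl2, Bcl2l1, Bcl2a1a, Bcl2a1d and Bak1, below them in Mcl1, Bcl2l11 and Bbc3, and within their range in Bcl2a1b and Bax. The IL4_IL13 library of the same number lay outside its group in 6 of these genes, above in Bcl2, Bcl2l1 and Bak1 and below in Mcl1, Bcl2l11 and Bbc3, each on the same side. The stromal marker sum of Control replicate 1 was 19.0 CPM against 104 to 611 in the other controls, and its macrophage marker sum 13573 CPM against 20370 to 24309. The genes and list counts that Control replicate 1 moved most are given with and without it.

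The counts that follow are over the 9 genes other than Bcl2a1a, since its rise with TNFa was fixed by the filter. IL-4 and IL-13 raised 5 of the 9 and lowered 0, adding TNFa raised 4 and lowered 2, and against Control the 3 cytokines raised 5 and lowered 3 (edgeR quasi-likelihood test, adjusted p of 0.05). Over all 13177 genes tested 59.0%, 59.6% and 73.8% were called in these comparisons, with 29.3%, 30.3% and 36.4% higher and 29.7%, 29.3% and 37.3% lower, so a call by itself sets little apart here. By at least 2-fold 2 genes rose and 0 fell with IL-4 and IL-13, where 5.68% and 6.69% of all genes did, 12.4% in all. With TNFa added 2 rose and 1 fell, where 6.72% and 10.8% did, 17.5% in all. Against Control 4 rose and 2 fell, where 11.5% and 15.1% did, 26.6% in all. Libraries without overlap were found for 1 of the 9 genes higher and 0 lower with IL-4 and IL-13, where 12.5% and 14.2% of all genes did the same, 26.7% in all. For added TNFa, and for the 3 cytokines against Control, they were found for 4 of the 9 higher and 2 lower. The shares over all genes were 23.3% and 21.6% in the first (44.9% in all) and 26.1% and 25.1% in the second (51.2% in all). The median log2 fold change of the 9 genes was 0.41, 0.15 and 0.14, while that of all genes lay between -0.02 and 0.00. The comparisons share libraries, so their counts are not independent of each other.

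**Figure D1:**
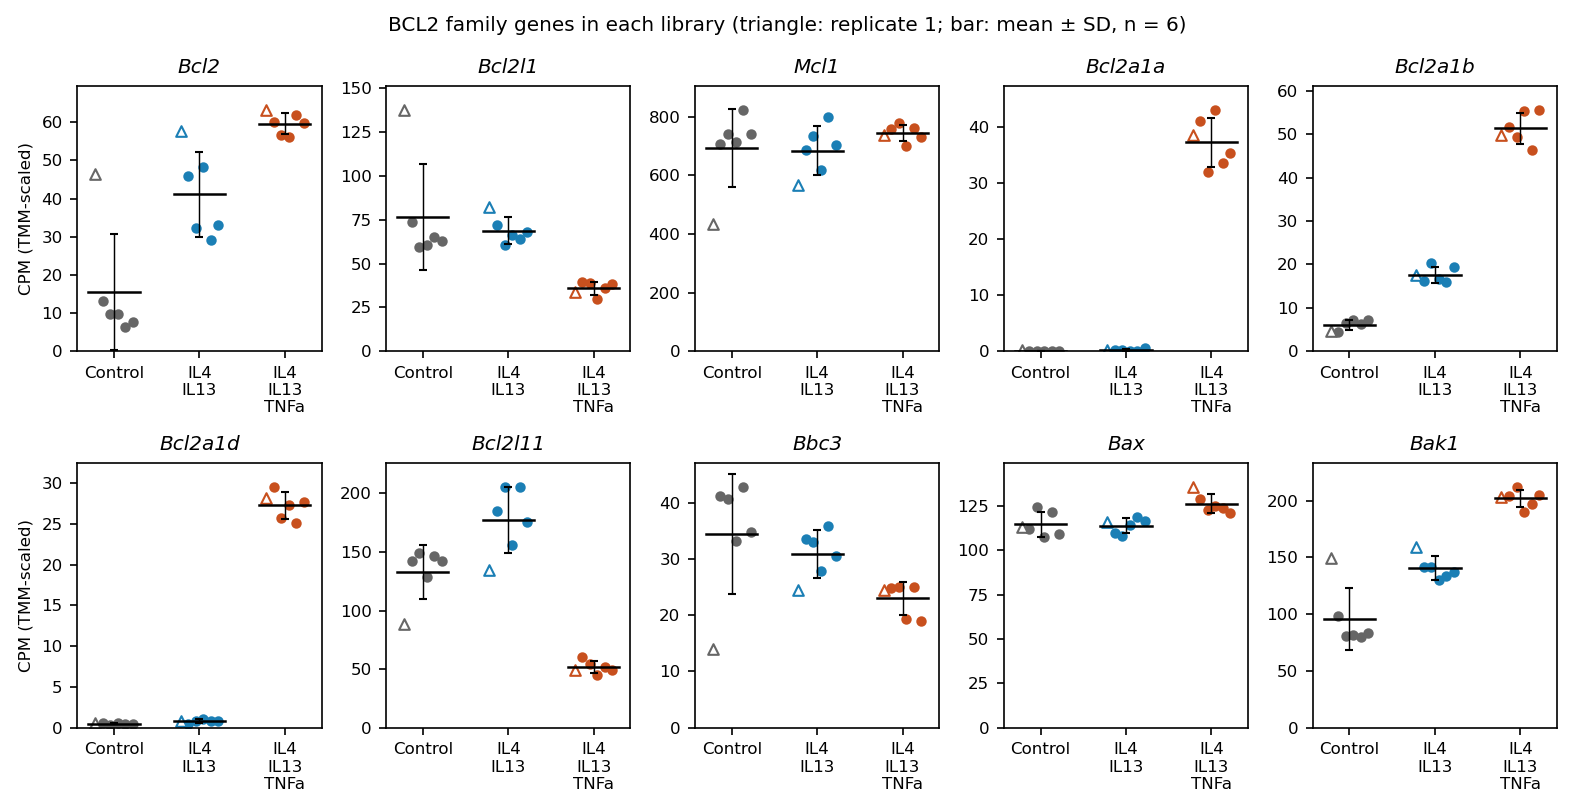
Level of each of the 10 genes in CPM (normalised counts on TMM-scaled library sizes) in each library, 1 panel per gene, with axes starting at 0. Points are libraries (open triangles: replicate 1 of each group), and bars show the mean ± SD of 6 libraries. Bcl2a1a, Bcl2a1b and Bcl2a1d stood highest in the IL4_IL13_TNFa libraries, Bcl2l11 and Bcl2l1 lowest there, and Control replicate 1 lay away from the other controls in most panels.

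With TNFa the A1 genes carried the largest rises of the 10. Bcl2a1a (ENSMUSG00000102037; GRCm38 chr9:88956900-88962419, plus strand), Bcl2a1b (ENSMUSG00000089929; chr9:89199209-89207827, plus strand) and Bcl2a1d (ENSMUSG00000099974; chr9:88723285-88731914, minus strand) are mouse duplicates of 1 ancestral gene, and each encodes a short-lived survival protein that binds BH3-only proteins. Their coding sequences are 519 bases long in each and differ at 12 sites among the 3. The first 90 coding bases are printed because no other stretch of 90 holds more of the differing sites, which are in capitals (GRCm38 reference, sense strand, at chr9:88957051-88957140, chr9:89199360-89199449 and chr9:88731630-88731719).
Bcl2a1a: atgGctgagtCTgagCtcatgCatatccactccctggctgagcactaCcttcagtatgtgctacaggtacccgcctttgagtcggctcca
Bcl2a1b: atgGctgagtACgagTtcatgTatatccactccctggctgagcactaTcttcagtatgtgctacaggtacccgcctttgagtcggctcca
Bcl2a1d: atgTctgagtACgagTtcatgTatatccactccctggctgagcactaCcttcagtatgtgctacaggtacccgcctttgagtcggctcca
Of the 12 differing sites 6 lie in this stretch. Over the whole coding sequence Bcl2a1a and Bcl2a1b were 97.9% identical (11 sites), Bcl2a1a and Bcl2a1d 98.7% (7 sites), and Bcl2a1b and Bcl2a1d 98.8% (6 sites). Of all 75-base windows of their transcripts, 55.2% for Bcl2a1a, 43.5% for Bcl2a1b and 67.6% for Bcl2a1d occur unchanged in another Bcl2a1 transcript. Neither the read length nor the handling of reads with several matches is given in the sources used here, so the split of reads among the copies is uncertain, and their sum is given as well.

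Bcl2a1a was close to absent without TNFa. It ranged from 0 to 0.151 CPM in Control (median 0.0241), from 0.0566 to 0.485 in IL4_IL13 (median 0.212) and from 31.9 to 43.1 in IL4_IL13_TNFa (median 37.1). Every IL4_IL13_TNFa library lay far above every other library. Its counts summed to 5 over the 6 controls, 24 over IL4_IL13 and 3351 over IL4_IL13_TNFa, a ratio of 163 for added TNFa (95% counting interval 109 to 255) and of 825 against Control (353 to 2543). The fitted log2 fold changes were 7.31 ± 0.25 and 9.48 ± 0.31 (SE), given as a description with no test, since the filter fixed this difference. The second SE is approximate and implies a narrower range than the counting interval above. For IL4_IL13 against Control the value was 2.16 ± 0.62 (edgeR adjusted p = 0.0061), but these groups overlapped, and 3 of the 5 control counts came from Control replicate 1. Without that library the values were 3.00 for IL-4 and IL-13 (adjusted p = 0.00100) and 10.31 for the 3 cytokines against Control.

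Bcl2a1d also rose mainly with TNFa, from a higher base, with 56 counts in all of Control against 5 for Bcl2a1a. Its range was 0.355 to 0.603 CPM in Control (median 0.512), 0.475 to 1.07 in IL4_IL13 (median 0.836) and 25.1 to 29.6 in IL4_IL13_TNFa (median 27.5). Added TNFa raised it 33.1-fold, with a log2 fold change of 5.05 ± 0.12 (adjusted p = 1.26e-16), with no overlap of the libraries. With IL-4 and IL-13 alone it rose 1.61-fold, by 0.69 ± 0.16 on the log2 scale (adjusted p = 0.0100), with overlapping libraries. This rested on 86 against 56 counts, and the 95% counting interval of the ratio, 1.14 to 2.31, is wider than that SE implies.

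Bcl2a1b was the copy that IL-4 and IL-13 moved without overlap, and it was the only one of the 10 genes to do so. In Control it ran from 4.47 to 7.13 CPM (median 6.40), in IL4_IL13 from 15.9 to 20.3 (median 16.99) and in IL4_IL13_TNFa from 46.3 to 55.5 (median 50.7). It rose by nearly equal steps, a log2 fold change of 1.55 ± 0.11 for IL-4 and IL-13 (adjusted p = 1.01e-09) and 1.54 ± 0.10 for added TNFa (adjusted p = 2.31e-10). Against Control the 3 cytokines gave 3.10 ± 0.11, an 8.55-fold rise (adjusted p = 1.40e-14). The exons of Bcl2a1b share 401 bases (49.1%) with the predicted gene Gm29094 on the same strand, which had 47 counts in all libraries beside 7143 for Bcl2a1b.

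The summed A1 rows do not depend on how shared reads were divided among the copies. They do depend on whether such reads were counted at all, which is unknown, and the copies share unlike parts of their windows. With Bcl2a1c included, another copy, which had 7, 7 and 48 counts in the 3 groups, the sum was 6.63 ± 1.154 CPM in Control, 18.7 ± 1.92 in IL4_IL13 and 116 ± 8.43 in IL4_IL13_TNFa (SD, n = 6). IL-4 and IL-13 raised it 2.83-fold (adjusted p = 4.32e-10). With TNFa added the sum stood 6.23-fold higher, given with no test, since it holds Bcl2a1a, whose rise the filter fixed. In the first step nearly all of the sum was Bcl2a1b, while after TNFa each of the 3 copies was at 25.1 CPM or more in every library.

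The promoter windows of the 3 copies were nearly the same where they aligned, with identities of 98.0% to 99.2% between pairs over 250 to 294 of the 300 bases, the rest being shifted starts and gaps left out of these shares, although their levels without TNFa differed. They are printed for that reason, as 250 bases before to 50 after each RefSeq start (GRCm38.p6, sense strand; Bcl2a1a chr9:88956670-88956969, Bcl2a1b chr9:89199023-89199322 and Bcl2a1d chr9:88731801-88732100). Capitals mark matches to the NF-kB motif on either strand, searched as GGG, any 5 bases and CC.
Bcl2a1a: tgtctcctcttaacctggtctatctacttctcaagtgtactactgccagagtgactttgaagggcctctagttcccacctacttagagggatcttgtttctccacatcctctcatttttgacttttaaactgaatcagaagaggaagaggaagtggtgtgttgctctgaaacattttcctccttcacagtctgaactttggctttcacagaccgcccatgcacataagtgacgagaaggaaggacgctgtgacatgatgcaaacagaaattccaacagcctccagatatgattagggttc
Bcl2a1b: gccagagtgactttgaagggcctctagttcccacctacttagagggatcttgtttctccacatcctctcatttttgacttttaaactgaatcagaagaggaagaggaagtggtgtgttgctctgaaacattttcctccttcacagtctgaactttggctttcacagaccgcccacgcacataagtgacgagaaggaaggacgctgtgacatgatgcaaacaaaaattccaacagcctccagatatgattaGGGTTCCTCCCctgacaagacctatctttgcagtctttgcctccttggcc
Bcl2a1d: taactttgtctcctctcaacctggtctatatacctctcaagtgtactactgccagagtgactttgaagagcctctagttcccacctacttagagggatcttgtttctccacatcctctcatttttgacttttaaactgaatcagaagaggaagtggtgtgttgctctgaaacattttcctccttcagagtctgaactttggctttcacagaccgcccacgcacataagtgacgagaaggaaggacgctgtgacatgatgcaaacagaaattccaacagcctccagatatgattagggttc
The Bcl2a1b window held 2 overlapping matches, GGGTTCCTCC on the sense strand from position +1 and GGTTCCTCCC on the antisense strand from position +2. The windows of Bcl2a1a and Bcl2a1d held 0 matches and end within the same stretch, since their annotated starts lie further upstream relative to it. Of 32851 promoters in the RefSeq table, 50.8% held at least 1 such match, so a match is common and is given as a description. Members that did not rise with added TNFa held matches too. The windows of Bbc3 held 10, 4 and 4, those of Bcl2l11 5 and 3, those of Bcl2l1 0, 2 and 0, and that of Mcl1 3. Bcl2, Bax and Bak1 held 1 each. The STAT6 motif, searched as TTC, any 4 bases and GAA and present in 6.95% of promoters, was found among the 10 genes only in 1 of the windows of Bcl2l1, as TTCTTCAGAA from position -4.

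Bcl2 (ENSMUSG00000057329; chr1:106538178-106714274, minus strand), the founding survival gene of the family, was low in Control and higher with the cytokines. It ran from 6.34 to 46.3 CPM in Control (median 9.78), from 29.2 to 57.7 in IL4_IL13 (median 39.4) and from 56.2 to 63.2 in IL4_IL13_TNFa (median 60.0). The control at 46.3 was replicate 1, while the other 5 reached at most 13.1, below every IL4_IL13 library. Bcl2 rose with a log2 fold change of 1.40 ± 0.37 with IL-4 and IL-13 (adjusted p = 0.00369) and of 1.94 ± 0.37 with the 3 cytokines (adjusted p = 0.000139). Without Control replicate 1 these values were 2.14 (adjusted p = 2.72e-08) and 2.67 (adjusted p = 6.39e-10), a change from 2.636-fold to 4.396-fold in the first. Added TNFa gave 0.54 ± 0.36, which did not pass (adjusted p = 0.207, 95% interval -0.22 to 1.297), although the value was higher in 6 of 6 same-numbered libraries. With Control replicate 1 left out the same difference of 0.53 passed (adjusted p = 0.00664). An antisense gene, D630008O14Rik, overlaps 558 exon bases of Bcl2 (6.09%) and had 49 counts.

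Bcl2l1 (ENSMUSG00000007659; chr2:152780668-152831728, minus strand), which encodes the survival protein Bcl-xL, moved the other way from the A1 genes after TNFa. Its levels were 59.7 to 137.6 CPM in Control (median 63.9), 60.8 to 82.2 in IL4_IL13 (median 67.1) and 29.7 to 39.4 in IL4_IL13_TNFa (median 36.9). All libraries with TNFa lay below all others. It fell by 0.94 ± 0.17 on the log2 scale with added TNFa, 1.92-fold (adjusted p = 0.000118), and by 1.09 ± 0.17 against Control (adjusted p = 1.51e-05). With IL-4 and IL-13 the log2 fold change was -0.15 ± 0.17 (adjusted p = 0.449, 95% interval -0.51 to 0.21), and 0.10 without Control replicate 1, the library at 137.6 CPM. Neither value passed.

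Mcl1 (ENSMUSG00000038612; chr3:95658788-95663176, plus strand), a short-lived survival protein's gene that many myeloid cells need, was the most abundant of the 10 and did not pass the test in any comparison. It ranged from 434 to 823 CPM in Control (median 727), from 566 to 798 in IL4_IL13 (median 695) and from 699 to 781 in IL4_IL13_TNFa (median 749). The groups overlapped throughout, and the lowest library was Control replicate 1. The log2 fold changes were -0.02 ± 0.11 for IL-4 and IL-13 (adjusted p = 0.894, 95% interval -0.26 to 0.22), 0.12 ± 0.11 for added TNFa (adjusted p = 0.368, -0.12 to 0.36) and 0.10 ± 0.11 against Control (adjusted p = 0.418, -0.14 to 0.34). These intervals leave room for changes of up to 0.36 on the log2 scale. The sign depended on scaling: with library totals alone the latter 2 values were -0.08 and -0.15.

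Levels are compared between genes per kilobase of exon. The 6 survival genes, with other family members left out, summed to a median of 236 CPM per kb in Control, 246 in IL4_IL13 and 371 in IL4_IL13_TNFa. Mcl1 made up a median of 89.98% of that sum in Control, 82.8% in IL4_IL13 and 57.9% in IL4_IL13_TNFa, where its highest library (61.3%) lay below the lowest of the other groups (75.3%, Control replicate 1). The 3 A1 genes took 3.70%, 9.91% and 38.2%, and their ranges did not overlap between any of the groups, at 2.66% to 4.01%, 7.53% to 10.7% and 34.7% to 41.2%. Bcl2a1a, whose rise the filter fixed, is part of the sum and took a median of 12.2% in IL4_IL13_TNFa. Bcl2a1b alone took 3.36%, 9.31% and 16.4%, also without overlap, at 2.37% to 3.75%, 7.16% to 10.1% and 15.6% to 18.3%. Bcl2l1 made up 5.67%, 6.20% and 2.19%, and Bcl2 0.453%, 1.76% and 1.73%. The medians of the Mcl1 share thus fell apart while the level of Mcl1 itself did not pass the test.

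**Figure D2:**
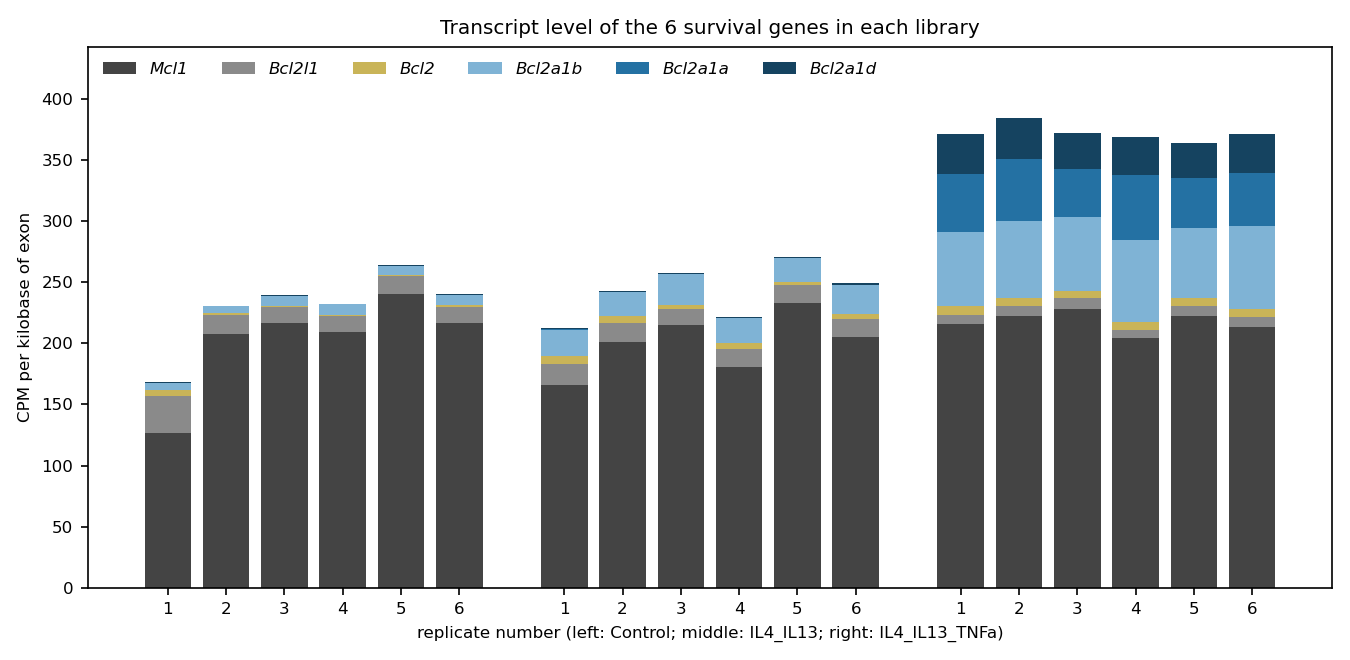
Level of the 6 survival genes in each of the 18 libraries, stacked, in CPM per kilobase of exon, with an axis starting at 0 (left Control, middle IL4_IL13, right IL4_IL13_TNFa). The stacks reached medians of 236, 246 and 371, and the blue A1 segments took a median of 38.2% of the stack in IL4_IL13_TNFa against 3.70% in Control.

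Bcl2l11 (ENSMUSG00000027381; chr2:128126038-128162547, plus strand) encodes Bim, the BH3-only protein that triggers death of many blood cells when growth factors are withdrawn. Its levels were 88.4 to 149 CPM in Control (median 142.5), 134.9 to 205.8 in IL4_IL13 (median 180.4) and 44.9 to 60.2 in IL4_IL13_TNFa (median 50.6). The libraries with TNFa lay below all others, and the lowest control was again replicate 1. IL-4 and IL-13 raised it with a log2 fold change of 0.41 ± 0.12, 1.33-fold (adjusted p = 0.00683), with overlapping libraries but higher in 6 of 6 same-numbered pairs. Added TNFa lowered it 3.44-fold, a log2 fold change of -1.78 ± 0.13 (adjusted p = 5.14e-10). Against Control the fall was 2.58-fold, -1.37 ± 0.12 (adjusted p = 1.06e-08).

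Bbc3 (ENSMUSG00000002083; chr7:16308393-16318205, plus strand) encodes Puma, a BH3-only protein known as a target of p53. It ran from 14.1 to 42.9 CPM in Control (median 37.8), from 24.5 to 35.9 in IL4_IL13 (median 31.8) and from 19.0 to 25.1 in IL4_IL13_TNFa (median 24.7). The library at 14.1 was Control replicate 1, and the other controls began at 33.2, above every library with TNFa. Against Control the 3 cytokines lowered Bbc3, and the log2 fold change was -0.59 ± 0.19 (adjusted p = 0.0105). For added TNFa the value was -0.43 ± 0.19 (adjusted p = 0.0645), which passed in a fit blocked by replicate number (-0.41, adjusted p = 0.0410) and without Control replicate 1 (-0.43, adjusted p = 0.000854). For IL-4 and IL-13 it was -0.16 ± 0.19 (adjusted p = 0.482), and -0.32 without Control replicate 1 (adjusted p = 0.00802). Bbc3 is thus the gene whose calls turned most on that library.

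Set per kilobase, the BH3-only genes Bcl2l11 and Bbc3 summed to a median of 35.7 CPM per kb in Control, 37.6 in IL4_IL13 and 17.97 in IL4_IL13_TNFa. The survival sum was 6.21 to 9.56 times the BH3-only sum in Control (median 6.94), 6.24 to 7.505 times in IL4_IL13 (median 6.59) and 19.9 to 25.1 times in IL4_IL13_TNFa (median 20.5). The Mcl1 level per kilobase was a median of 11.9, 9.19 and 34.6 times that of Bcl2l11. Both ratios stood highest in all 6 libraries with TNFa. They are ratios of RNA, taken over genes with unlike proteins, and carry no test.

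Of the pore-forming genes Bak1 (ENSMUSG00000057789; chr17:27019810-27029009, minus strand) rose with each addition. It ranged from 79.9 to 149.1 CPM in Control (median 82.3), from 130.3 to 159.3 in IL4_IL13 (median 139.1) and from 189.8 to 212.3 in IL4_IL13_TNFa (median 203.6). The control at 149.1 was replicate 1, and the other 5 reached at most 98.6, below every IL4_IL13 library. The log2 fold changes were 0.56 ± 0.12 for IL-4 and IL-13 (adjusted p = 0.000753), 0.52 ± 0.12 for added TNFa (adjusted p = 0.00105) and 1.08 ± 0.12 against Control, 2.11-fold (adjusted p = 2.25e-07). Without Control replicate 1 the first was 0.73 and the third 1.26. Ggnbp1 lies on the opposite strand over 437 of its exon bases (18.2%), with 901 counts against 43776 for Bak1.

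Bax (ENSMUSG00000003873; chr7:45461697-45466898, minus strand) varied little among the libraries of each group. It lay between 107.6 and 124.4 CPM in Control (median 112.5), 108.3 and 118.7 in IL4_IL13 (median 115.2) and 121 and 136.1 in IL4_IL13_TNFa (median 124.7). The libraries with TNFa were above all IL4_IL13 libraries but overlapped with Control. With IL-4 and IL-13 the log2 fold change was -0.01 ± 0.04 (adjusted p = 0.869, 95% interval -0.10 to 0.08). Added TNFa gave 0.15 ± 0.04 (adjusted p = 0.00686) and the 3 cytokines against Control 0.14 ± 0.04 (adjusted p = 0.00802), but with library totals as the only scaling these were -0.06 (adjusted p = 0.263) and -0.11 (adjusted p = 0.0304). That scaling shifted the median of all genes by -0.20 and -0.27, and the small rise of Bax is relative to such a median. The predicted gene Gm45808 shares 192 of its exon bases (12.2%) on the same strand and had 11 counts.

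**Figure D3:**
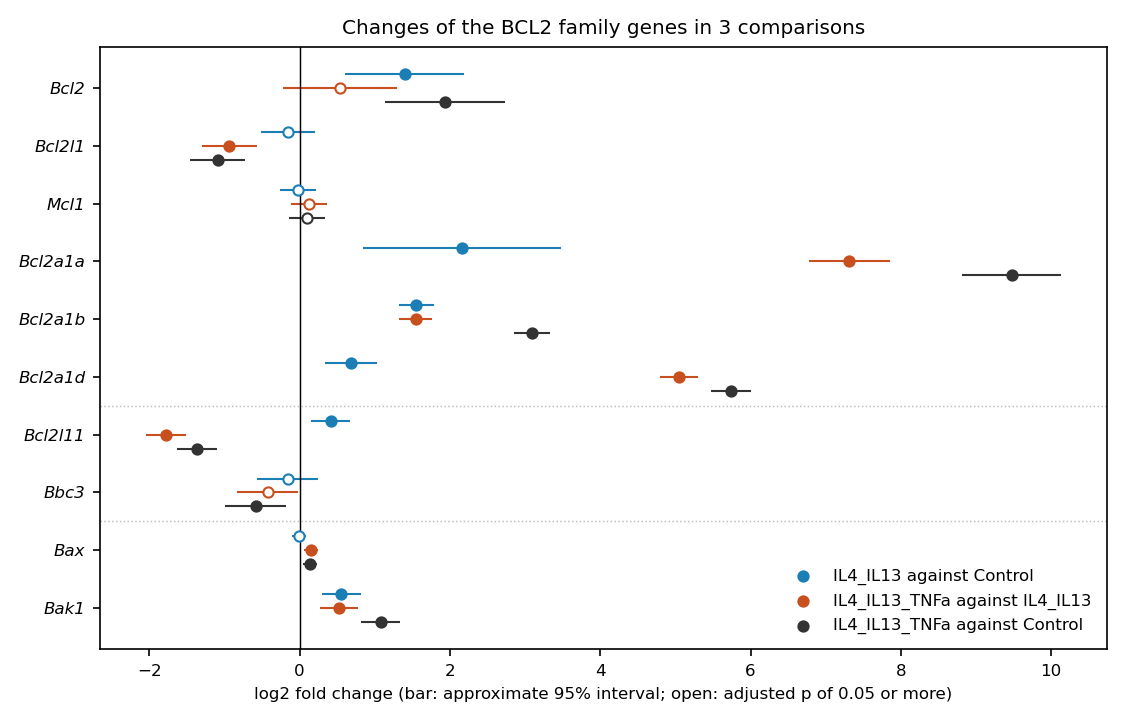
Log2 fold change of each of the 10 genes in the 3 comparisons, with approximate 95% intervals from edgeR's quasi-likelihood test over 18 libraries. Intervals of Bcl2a1a and Bcl2a1d can be narrower than counting error alone. Filled points passed an adjusted p of 0.05 and open points did not, except that the values of Bcl2a1a with TNFa are a description with no test. Bcl2a1a and Bcl2a1d stand out at 7.31 and 5.05 for added TNFa, Bcl2l11 is lowest at -1.78, and Mcl1 is open in all 3 comparisons; the signs for Bax and Mcl1 in the comparisons with TNFa flip with library totals as the only scaling.

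Ranked per kilobase, Mcl1 came first in every group, at medians of 213, 203 and 219 CPM per kb, apart from the gene below it. In Control Bax (71.4) and Bak1 (34.2) followed, then Bbc3, Bcl2l11 and Bcl2l1 (17.8, 17.8 and 13.9), whose ranges overlapped with each other. The range of Bbc3 also reached that of Bcl2a1b, through Control replicate 1 (6.62, against at most 8.72 for Bcl2a1b). Bcl2a1b came next at 7.83, followed by Bcl2 and Bcl2a1d (1.07 and 0.594), which overlapped, and Bcl2a1a. In IL4_IL13 the first 3 kept their places, Bcl2l11 and Bcl2a1b (22.5 and 20.8) overlapped behind them, and Bcl2a1a was again last at 0.259.

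With TNFa the order changed. Bak1 and Bax (84.6 and 79.1) overlapped behind Mcl1. The 3 A1 genes took the next places, apart from each other, at 62.1 for Bcl2a1b, 45.3 for Bcl2a1a and 31.9 for Bcl2a1d. The share of their 75-base windows found in another copy ran the opposite way, at 43.5%, 55.2% and 67.6%. Whether the handling of shared reads set this order of the 3 was not tested. Bbc3 (11.6) stood alone below the A1 genes. Bcl2l1, Bcl2 and Bcl2l11 closed the order at 8.05, 6.55 and 6.30, each overlapping with the next.

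Of 16 other BCL2 family genes listed, 10 passed the filter. With IL-4 and IL-13 1 was higher and 5 lower, with added TNFa 1 and 4, and against Control 1 and 6, with median log2 fold changes of -0.12, -0.13 and -0.29. Over all genes 29.3%, 30.3% and 36.4% were called higher, 29.7%, 29.3% and 37.3% lower, and the medians lay between -0.02 and 0.00. The same shares, 59.0%, 59.6% and 73.8% in all, apply to the counts of the lists below. Bmf, a BH3-only gene, led the falls. Its level was 42.5 to 133 CPM in Control (median 127), 11.4 to 20.4 in IL4_IL13 (median 18.2) and 7.43 to 10.6 in IL4_IL13_TNFa (median 8.86), with no overlap between groups and Control replicate 1 as the lowest control. It fell 6.72-fold with IL-4 and IL-13, a log2 fold change of -2.75 ± 0.22 (adjusted p = 7.74e-09), and 12.6-fold with the 3 cytokines, -3.65 ± 0.24 (adjusted p = 9.73e-11). Added TNFa took it down by a further log2 fold change of -0.90 ± 0.23 (adjusted p = 0.00251).

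Bmf and Bcl2l11, both BH3-only genes, moved in opposite directions with IL-4 and IL-13. Pmaip1, which encodes the BH3-only protein Noxa that binds Mcl1, fell with IL-4 and IL-13 with a log2 fold change of -1.28 ± 0.14 (adjusted p = 5.12e-07) and against Control by -0.99 ± 0.14 (adjusted p = 5.07e-06). For added TNFa its value was 0.29 ± 0.15 (adjusted p = 0.0962), which passed when Control replicate 1 or IL4_IL13 replicate 2 was left out (0.29 and 0.40). Bnip3, a gene of mitophagy, fell in each comparison, with log2 fold changes of -0.71, -0.42 and -1.13. Bcl2l12 fell with added TNFa, by -0.41. Bcl2l10, Bcl2l14, Bcl2l15, Bcl2a1c, Bik and Hrk had too few counts to be tested.

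Of 12 tested genes of the death receptor route, which runs from TNF family receptors to caspase-8, 1 rose and 6 fell with IL-4 and IL-13, 6 rose and 3 fell with added TNFa, and 6 rose and 4 fell against Control. The medians were -0.11, 0.21 and 0.15. With IL-4 and IL-13 the 6 that fell became 2 with no filter on low counts and 3 with only the libraries compared, and the 1 that rose became 2 without Control replicate 1. Traf1, an NF-kB target that encodes a signalling adaptor, rose 18.5-fold with added TNFa, a log2 fold change of 4.21 ± 0.16 (adjusted p = 1.09e-13), after a fall of -0.49 ± 0.15 with IL-4 and IL-13 (adjusted p = 0.0107). Fas, a death receptor gene, rose 9.82-fold with added TNFa, from 4.34 ± 0.865 to 42.5 ± 3.47 CPM (SD, n = 6; log2 fold change 3.30 ± 0.13, adjusted p = 9.64e-14). With IL-4 and IL-13 Fas gave -0.31 ± 0.13 (adjusted p = 0.0454), which did not pass in a fit blocked by replicate number (adjusted p = 0.0531). Nor did it pass with no filter (0.148), with only the libraries compared (0.114) or in most fits with 1 library left out. Tnfrsf10b, the receptor gene for TRAIL, rose by 1.83 ± 0.19 (adjusted p = 9.19e-08). Cflar, which encodes the caspase-8 inhibitor c-FLIP, fell by -0.65 ± 0.07 with IL-4 and IL-13 (adjusted p = 3.72e-07), from 129 ± 11.0 to 81.8 ± 7.002 CPM, and rose by 1.36 ± 0.07 to 210.1 ± 18.2 CPM with TNFa added (adjusted p = 8.60e-12). The receptor genes Fas and Tnfrsf10b and the inhibitor gene Cflar thus rose with added TNFa, while other parts of the route fell. The 3 that fell were Tnfrsf1a, a receptor gene for TNFa (-0.29 ± 0.04, adjusted p = 1.02e-05), Casp8, the caspase-8 gene (-0.41 ± 0.04, adjusted p = 1.41e-07), and Ripk1 (-0.33 ± 0.07, adjusted p = 0.000276).

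**Figure D4:**
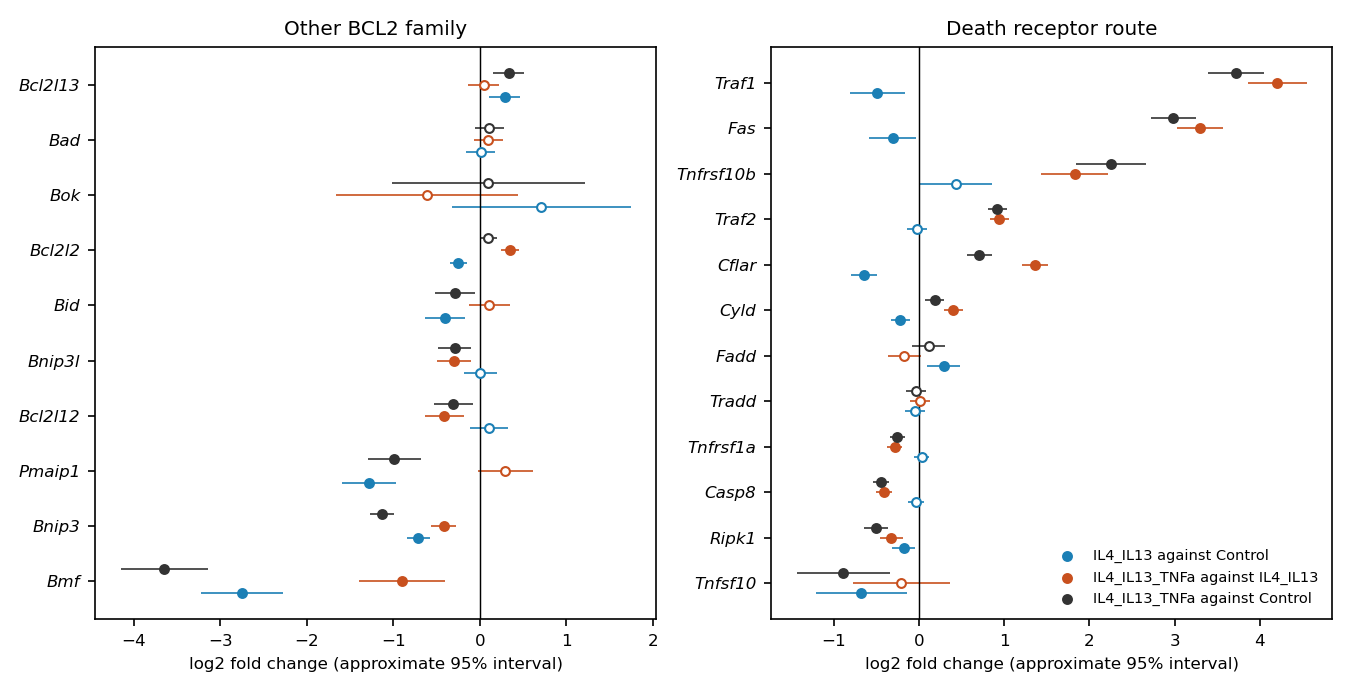
Log2 fold changes of the tested genes of the other BCL2 family list (left) and of the death receptor route (right), with approximate 95% intervals from edgeR's quasi-likelihood test over 18 libraries and 1 colour per comparison. Filled points passed an adjusted p of 0.05 and open points did not. Bmf lies lowest on the left, at -2.75 with IL-4 and IL-13, and Traf1 (4.21) and Fas (3.30) lie highest on the right for added TNFa.

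Among 17 genes of the caspase route and its inhibitors, 8 rose and 3 fell with IL-4 and IL-13, 7 rose and 5 fell with added TNFa, and 8 rose and 2 fell against Control, with medians of 0.10, 0.09 and 0.07. The 3 that fell with IL-4 and IL-13 became 5 without Control replicate 1 and 1 with no filter on low counts. Casp6, an executioner caspase gene, rose 3.44-fold with IL-4 and IL-13 (log2 fold change 1.78 ± 0.09, adjusted p = 6.17e-12). Birc3, an inhibitor gene known as an NF-kB target, fell by -0.99 ± 0.19 with IL-4 and IL-13 (adjusted p = 0.000255). It then rose 7.26-fold with added TNFa, from 43.8 ± 10.7 to 317 ± 16.5 CPM (adjusted p = 6.17e-10). Birc5, which encodes survivin and is high in dividing cells, fell 9.40-fold with added TNFa, by -3.23 ± 0.23 (adjusted p = 9.59e-10). Aifm1 rose by 1.22 with added TNFa. Cycs, the cytochrome c gene, rose by 1.94 against Control, at low levels of 1.58 ± 0.599 CPM in Control and 6.10 ± 0.633 CPM in IL4_IL13_TNFa (SD, n = 6).

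Of 15 p53 targets and regulators, 8 rose and 3 fell with IL-4 and IL-13, 5 rose and 5 fell with added TNFa, and 10 rose and 4 fell against Control (medians 0.25, 0.01 and 0.32). Without Control replicate 1, 5 and not 3 fell with IL-4 and IL-13. Plk2, a stress kinase gene, rose in both steps, by 1.90 ± 0.09 (adjusted p = 3.94e-12) and 2.04 ± 0.09 on the log2 scale, reaching 15.3-fold against Control. Plk3 rose by 1.25 with IL-4 and IL-13 and Phlda3 by 1.59 against Control. Sesn1, a stress-response gene, fell in both steps, by -1.52 ± 0.17 and -1.20 ± 0.18, and Trp53inp1 fell by -0.91 with added TNFa. The list thus held strong changes both ways.

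Of 13 measured regulators of BCL2 proteins or their genes, 7 rose and 2 fell with IL-4 and IL-13, 6 rose and 3 fell with added TNFa, and 8 rose and 3 fell against Control (medians 0.34, 0.15 and 0.38). Myc, a growth regulator gene, rose from 19.3 ± 19.7 to 86.5 ± 4.93 CPM with IL-4 and IL-13, a log2 fold change of 2.16 ± 0.36 (adjusted p = 6.31e-05). Control replicate 1 stood highest of the controls, at 59.5 CPM, and without it the value was 2.94, 7.68-fold. Ier3, an early response gene linked to survival, rose by 1.81 ± 0.19 (adjusted p = 2.11e-07), and Ywhaz, which encodes a 14-3-3 protein, by 0.74 ± 0.07. With added TNFa the kinase gene Pim1 rose by 0.71 ± 0.12, while the transcription factor genes Bcl6 and Foxo1 fell by -0.66 ± 0.04 and -0.64 ± 0.08.

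For the genes that changed by at least 1.5-fold, the genes with the nearest pattern over the 18 libraries were sought by the root mean square difference of centred log2(CPM + 0.1). Nearest to Bcl2l11 were Rasa3, St6gal1 and Tob1 (0.16, 0.17 and 0.18), and nearest to Bak1 were Cyb5b, Cct8 and Wars (0.08, 0.09 and 0.09). Nearest to Bcl2l1 were Mgat5, Jdp2 and Spp1 (0.17, 0.17 and 0.18), to Bcl2 D330045A20Rik, Ybx3 and Idh3a (0.22, 0.27 and 0.28), and to Bbc3 Dhx40, Foxo3 and Pgap1 (0.14, 0.16 and 0.16). Bcl2a1b lay nearest to Prkcd, Tfec and Csf2rb (0.20, 0.20 and 0.22). The nearest genes to Bcl2a1d lay at 0.38 (Alas1), 0.50 (Procr) and 0.50 (Serpinb1b), and those to Bcl2a1a at 0.70 (Slc7a11), 0.72 (Tnfsf4) and 0.72 (Apol7c). Bcl2a1a had 0 to 9 counts in each of the 12 libraries without TNFa, and counting noise at such levels adds to its distance from any gene.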

How the data were processed

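Poly(A) RNA of 18 libraries was sequenced after preparation with a strand-marking kit, as the labels' protocols state (NEBNext Ultra II Directional). The deposited table gives raw counts of reads per gene, whole numbers that the authors had not normalized. Per the submitters' processing notes the tools were featureCounts 1.5.1, STAR 2.5.2 and 2.5.2b, RSEM 1.3.0, FastQC 0.11.5 and bcl2fastq 2.20.0.422, with the build GRCm38 (mm10). What each tool did, the annotation release, the strand setting and the treatment of reads with several matches are unstated: not given in the sources used here. Near-identical, overlapping and antisense genes are therefore uncertain.

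Symbols from GENCODE M21 matched 48434 of 48794 gene IDs, and sample titles gave the groups. A filter on low counts (filterByExpr, minimum count 10) left 13177 genes. These were scaled by TMM and fitted with edgeR 4.0.16 in R 4.3.3, in 1 robust quasi-likelihood model of all 18 libraries, with Benjamini-Hochberg adjustment over all genes and a threshold of 0.05. The ± after a log2 fold change is an approximate SE (its size over the square root of F), and its 95% interval uses 15 degrees of freedom. At low counts, as for Bcl2a1a and Bcl2a1d, this SE can be smaller than counting error. CPM uses TMM-scaled library sizes, and values per kilobase divide it by merged exon length. Intervals of count ratios cover counting error only. Libraries of a group differed beyond sampling noise in all 45 pairs (chi-square per degree of freedom at least 2.59).

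Replicate numbers are shared across groups. On log2 CPM, libraries with 1 number deviated together from their groups in all 18 pairs (r from 0.128 to 0.671; on log2(CPM + 1), 17 of 18 were over 0.1), so the numbers are taken to pair the libraries, from the data and not from a label. Alternatives were size factors and the test of DESeq2 1.42.0, library totals, no filter, a stricter filter (CPM of 5 in 6 libraries), the replicate block, only the libraries compared, no libraries numbered 1, and each library left out. The scripts were tested on simulated counts.

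The members and gene lists were chosen with earlier results of these data known. Beside the 10 members, the text names Bcl2a1c, Pmaip1 and up to 3 called genes per list and comparison, those with the largest change whose higher group averaged 5 CPM or more. A gene that this rule names is not reported here. The text also names the 3 genes nearest in pattern to each member that changed at least 1.5-fold. Of the lists, Bcl2l2, Tnfrsf1a, Casp8 and Ripk1 are named outside these rules. Control replicate 1 was singled out after its values were seen. RefSeq promoters are of GRCm38.p6, all 10 members matched, and protein sequences were not used here.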

Additional observations from a re-analysis of the deposited data

Results flagged for a closer look

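Within each group of 6 libraries, the gap between the highest or lowest value and its neighbour was divided by the whole range and compared with Dixon's 95% critical value. Of 30 groups (10 genes in 3 conditions) 7 passed, and chance alone flags about 1 in 20 groups. All 7 were Control replicate 1. It was far above the other controls in Bcl2 (46.3 CPM, the others at most 13.1), Bcl2l1 (137.6 CPM, at most 73.5), Bak1 (149.1 CPM, at most 98.6) and Bcl2a1a (0.151 CPM, at most 0.0559, on 3 counts). It was far below them in Mcl1 (434 CPM, the others at least 708.6), Bcl2l11 (88.4 CPM, at least 128.9) and Bbc3 (14.1 CPM, at least 33.2). What set this library apart was not tested.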

How the results depend on the processing

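Over the 10 genes and 3 comparisons, 757 of 788 values under an alternative kept their direction and their side of the threshold, 17 changed sign, 12 newly passed and 2 no longer passed. The 757 include 27 values of Bcl2a1a in each comparison with TNFa, whose outcome the filter fixed. Most sign changes were of values near 0 in IL4_IL13 against Control. For Mcl1 the log2 fold change there was 0.044 with no filter and -0.12 to 0.034 with 1 library left out, for Bax 0.050 with no filter and -0.026 to 0.015 with 1 library left out. For Bcl2l1 it was 0.044 without the 3 libraries numbered 1, and -0.21 to 0.10 with 1 library left out. Scaling by library totals alone shifted the median of all genes by -0.04, -0.20 and -0.27 in the 3 comparisons and left 44.2%, 27.5% and 32.7% of called genes higher, against 49.7%, 50.9% and 49.4%. Under it Mcl1 was at -0.084 and Bax at -0.058 for added TNFa, and at -0.147 and -0.109 against Control, where Bax was called lower.

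The number of the 10 genes called lower with IL-4 and IL-13, 0, became 1 (Bbc3) without the 3 libraries numbered 1 and ranged from 0 to 1 with 1 library left out, the 1 being without Control replicate 1. Bbc3 newly passed for added TNFa with library totals, with DESeq2 (adjusted p = 0.0491), with only the libraries compared (0.00125), without the libraries numbered 1 (0.000171), and without Control replicate 1 or IL4_IL13 replicate 1 (0.0457). With the replicate block, which pairs the libraries by number, it also passed (log2 fold change -0.41, adjusted p = 0.0410), and the block changed no other call among the 10 genes. Bcl2 for added TNFa passed with only the libraries compared (adjusted p = 0.00483), without the libraries numbered 1 (0.0018) and without Control replicate 1. Against Control, Bax did not pass with the stricter filter (adjusted p = 0.09) nor Bbc3 with no filter (0.0544). Library totals also moved list counts: against Control 8 and not 2 genes of the caspase list were lower, 5 and not 10 p53 genes higher and 5 and not 3 regulators lower. For added TNFa 5 and not 3 death receptor genes were lower and 3 and not 6 regulators higher, while the stricter filter left 3 and not 5 p53 genes higher. Of the regulators 1 and not 2 was lower with IL-4 and IL-13 without a filter. Of the other BCL2 family the 1 gene called higher against Control became 0 with library totals and 3 with no filter. For added TNFa the 1 called higher became 2 in some alternatives, such as no filter. The cause of these changes was not tested. DESeq2 gave no adjusted p for Myc in the comparisons with Control. Depth limits Bcl2a1a and Bcl2a1d most, with 5 and 56 counts in all of Control.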
